A study of Mus musculus with 12 samples.

Results

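Embryos homozygous for the loop-tail allele of Vangl2 (Vangl2 Lp/Lp, written Lp/Lp here) were compared with wild type in RNA sequenced from the caudal region at E10.5 (embryonic day), 3 libraries against 3. Genes were kept where their TPM (transcript level scaled for gene length and library size) exceeded 1 in at least 3 of these 6 libraries. That rule kept 16727 of the 53342 genes in the table and left out 36615. The series also holds 3 libraries each of beta-catenin cKO and Emg1 cKO embryos (conditional knockouts of Ctnnb1 and of Emg1), and it was made to look for transcript changes behind failed neural tube closure. No other allele or agent is named for any of these 4 groups, and the sources used here give neither the strain nor the recombinase of the conditional knockouts nor whether the wild type embryos were littermates. Each library was made from total RNA of a pool of 4 to 7 embryos, so an individual embryo has no value of its own, and fewer cells of a type cannot be told apart from less RNA per cell in these bulk samples. Nothing in the sources says that pools came from separate litters, so p-values measure the spread between these pools.

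Vangl2 encodes a membrane protein of the core planar cell polarity pathway, in which Celsr cadherins, Frizzled receptors and Vangl proteins sort to opposite faces of neighbouring cells. In the early embryo this pathway drives convergent extension, the narrowing and lengthening of the neural plate and the midline mesoderm that brings the neural folds together. Loop-tail is a missense allele of Vangl2 whose protein also interferes with normal Vangl proteins, and homozygous embryos leave the neural tube open from the hindbrain to the tail (craniorachischisis). Because the allele changes the protein and not the gene's dose, the level of Vangl2 RNA is no check of the genotype.

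Replicate 1 of Lp/Lp stood apart before any test. The summed level of 27 heart muscle markers was 199, 208 and 215 TPM in wild type replicates 1, 2 and 3, and 1420, 183 and 181 TPM in Lp/Lp replicates 1, 2 and 3. In wild type 13 of these 27 markers lay under 1 TPM in all 3 libraries and 2 had no reads. The summed level of 12 yolk sac and placenta markers was 152 TPM in Lp/Lp replicate 1 and between 19.6 and 26.8 TPM in the other 5 libraries. Over 15 gut endoderm markers the sum was 280 TPM in that replicate and 151 to 173 TPM in the others. The same replicate was low for posterior Hox genes: their median log2 level lay at -0.628 from the wild-type mean, against 0.135 and 0.13 in replicates 2 and 3. Erythroid markers instead set replicate 3 apart, with a sum of 20600 TPM against 29400 to 35600 TPM in the other 5 libraries. Results are therefore given with and without Lp/Lp replicate 1, and the part of these other tissues in each result was not tested unless a value says more.

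Libraries held 34266067 to 46464596 reads in the 2 groups, and replicates of a group correlated across genes at Pearson's r of 0.986 to 0.99. As a check of the labelled caudal region, Hoxc10, of the trunk to tail transition, lay at 207, 222 and 221 TPM in wild type and at 216 and 226 TPM in Lp/Lp replicates 2 and 3. It lay at 116 TPM in Lp/Lp replicate 1. Of the genes kept, 15045 exceeded 1 TPM in all 6 libraries. The 589 genes with exactly 3 libraries over the threshold had a median level of 1.06 TPM, and 634 genes with exactly 2 libraries over it, left out, had a median of 0.847 TPM. A gene that entered through a single group had to differ: 166 entered through the 3 Lp/Lp libraries alone and 25 through the 3 wild-type libraries alone. Among the 589 genes 93 were called higher and 6 lower, a split that the threshold itself can set.

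Against wild type 968 genes rose in Lp/Lp (5.79% of the genes tested) and 571 fell (3.41%), at a Benjamini-Hochberg adjusted p under 0.05 in edgeR's quasi-likelihood test. This threshold is what "called" means throughout. Counts of list members given below are to be read beside these shares of all genes. The changes were mostly small: the median size among called genes was 0.443 on the log2 scale, and 225 genes rose (1.35%) and 33 fell (0.197%) by at least 2-fold. With Lp/Lp replicate 1 left out the counts were 501 higher (3.0%) and 211 lower (1.26%), and without Lp/Lp replicate 3 there were 326 lower. Of the 1539 genes called with all libraries 681, or 44.2%, were also called without Lp/Lp replicate 1, and these were 95.6% of the 712 genes called without that replicate. All 3 Lp/Lp libraries lay above all 3 wild-type libraries in 3744 genes (22.4%) and below them in 1112 (6.65%). Only 2 genes called with all libraries turned sign without Lp/Lp replicate 1. A fit of the 6 libraries alone, with fewer libraries to estimate spread, called 504 higher and 233 lower. The balance of higher and lower calls differed with the level of the gene and with the scaling or tool. Of 4600 genes with a mean of 5 to 20 TPM 352 rose and 59 fell, while of 1831 genes over 100 TPM 31 rose and 220 fell. Higher genes made up 62.9% of calls with TMM scaling (edgeR's trimmed mean of M values), 68.8% with upper quartile scaling, and 75.6% with library totals. They were 85.1% and 85.4% with limma on log2(TPM + 1) and log2(TPM + 0.1), which change the test and the input as well as the scaling. These settings put the median of all genes at 0.081 at most.

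**Figure D1:**
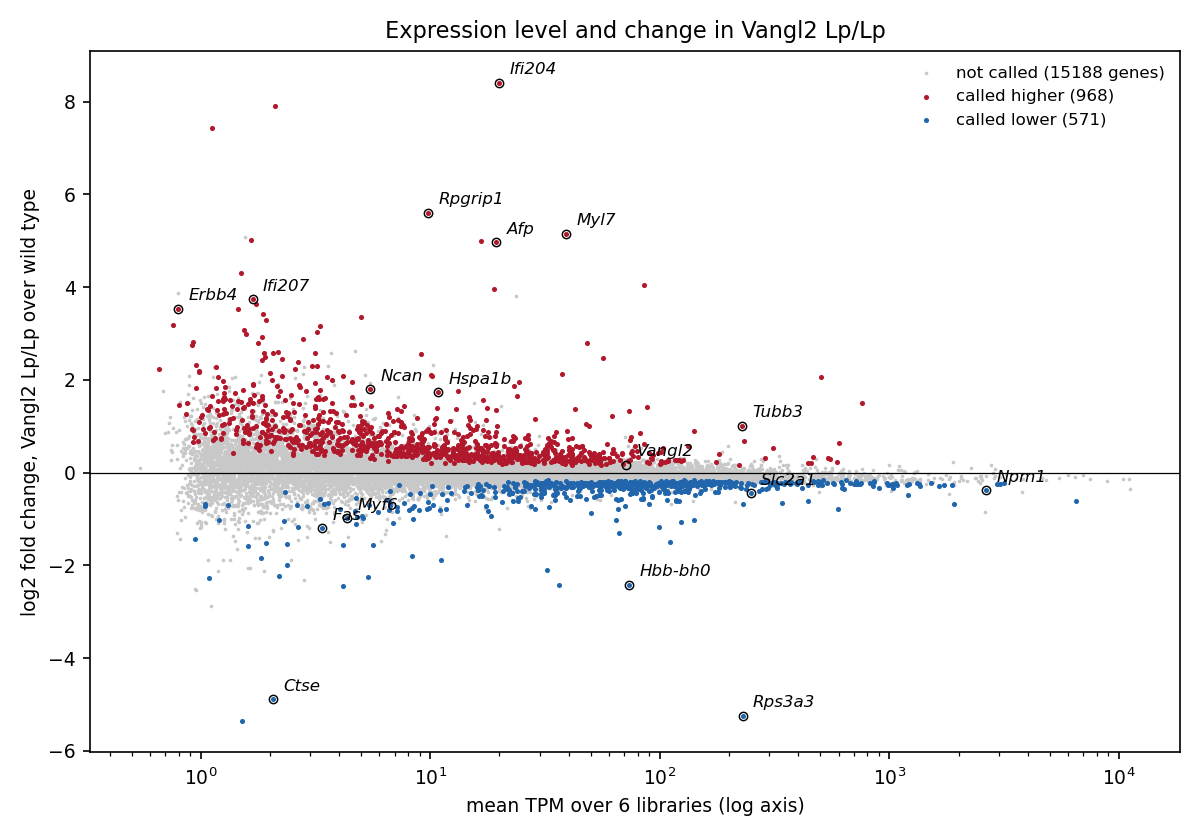
Log2 fold change of Lp/Lp over wild type (vertical axis) against mean TPM over the 6 libraries (horizontal log axis), 1 point per gene tested. The 968 genes called higher are red, the 571 called lower are blue and all others are grey; circled genes are named, and the blue points crowd to the right, at high TPM.

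**Figure D2:**
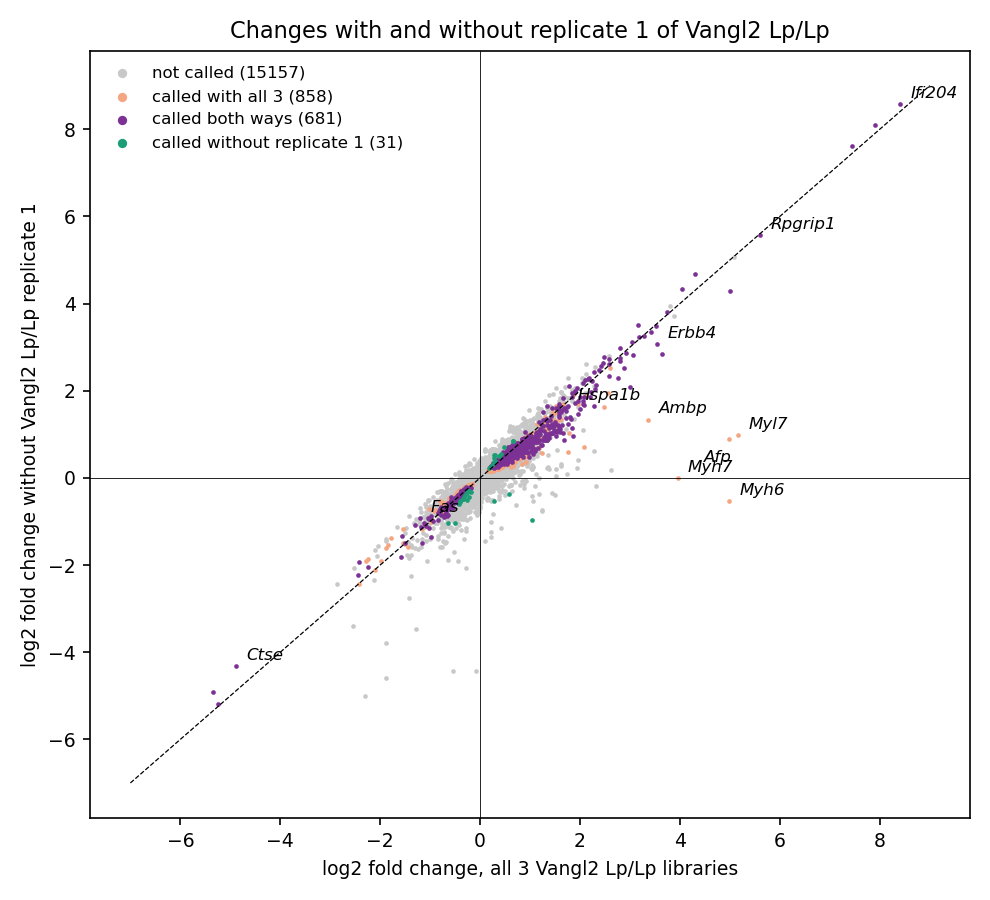
Log2 fold change of each gene with all 3 Lp/Lp libraries (horizontal axis) and without Lp/Lp replicate 1 (vertical axis). The 681 purple genes were called both ways; the heart genes Myl7, Myh6 and Myh7 and the fetal liver and yolk sac gene Afp lie far below the dashed line of equal change.

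The genes lost most sharply without replicate 1 included genes of heart and yolk sac. Myl7, the atrial myosin light chain, lay at 1.92, 2.65 and 1.5 TPM in wild type and at 220, 4.5 and 4.0 TPM in Lp/Lp. Afp, the alpha-fetoprotein of yolk sac and fetal liver, lay at 1.87, 0.818 and 0.822 TPM in wild type and at 108, 2.98 and 1.44 TPM in Lp/Lp. In both genes a single Lp/Lp library carried nearly all of the level. Myh6, a cardiac myosin heavy chain, read 95.5 TPM in that library and 0.893 and 0.497 TPM in the other two, within the wild-type range of 0.696 to 1.12 TPM or under it. Without replicate 1 none of these kept its call, Myh6 turned to -0.53, and 2 other heart muscle markers, Tnnt2 and Actc1, passed as lower.

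The targeted gene itself differed little. Vangl2 (ENSMUSG00000026556, mm10 chromosome 1, 172000960 to 172028444, minus strand) lay at 67.9, 68.2 and 59.0 TPM in wild type and at 76.1, 76.0 and 79.6 TPM in Lp/Lp. All Lp/Lp values were the higher, but the change of 0.17 ± 0.05 (log2, ± SE of the fit, here and throughout) missed the threshold with an adjusted p of 0.062, and 6 of 17 other settings called it. The genes deleted in the other 2 mutants did not pass either: Ctnnb1 changed by 0.05 (adjusted p 0.57) and Emg1 by -0.24 (adjusted p 0.062). Grhl3, a grainyhead-like factor of the surface ectoderm whose own loss leaves the caudal neural tube open, lay at 15.1, 16.2 and 13.7 TPM in wild type. In Lp/Lp it lay at 9.44, 12.7 and 12 TPM, a change of -0.47 ± 0.21 with an adjusted p of 0.17.

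Of 36 planar cell polarity genes 9 rose and Cdc42, a small GTPase, fell. The median change of the list was 0.143, against 0.00055 over all genes tested, and it was 0.084 without Lp/Lp replicate 3 and up to 0.166 with another library left out. Against wild type 10 genes of the list also rose in beta-catenin cKO (median 0.119) and 10 in Emg1 cKO (median 0.0995), and 1 fell in each. Between mutants 1 gene was higher in Lp/Lp than in beta-catenin cKO and 1 lower than in Emg1 cKO, with medians of 0.0117 and -0.022. The rise of this list was therefore not particular to Lp/Lp. Among the core membrane proteins the largest change was in Celsr3 (ENSMUSG00000023473), a 7-pass cadherin best known for axon guidance. It lay at 2.86, 3.47 and 2.98 TPM in wild type and at 8.84, 5.47 and 5.5 TPM in Lp/Lp, a change of 1.01 ± 0.16 with an adjusted p of 0.0017. The groups did not overlap, and without replicate 1 the change was 0.74 with the same adjusted p of 0.0017. Celsr2, its paralog, rose by 0.61 ± 0.10 (adjusted p 0.0025), from 22.5, 22.5 and 17.3 TPM to 36.3, 29.7 and 34.1 TPM. Celsr1, the member known for neural tube closure, changed by 0.21 (adjusted p 0.36), Vangl1 by -0.20 (adjusted p 0.22) and the Frizzled receptor Fzd6 by -0.25 (adjusted p 0.24). Fzd3, a receptor that acts with Fzd6 in neural tube closure, rose by 0.36 ± 0.09 (adjusted p 0.029).

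Among the cytoplasmic core proteins Dvl3 (0.34, adjusted p 0.046) and Ankrd6, the vertebrate Diego counterpart (0.24, adjusted p 0.036), rose. The other Dishevelled genes Dvl1 and Dvl2 changed by 0.12 and 0.20 and did not pass, nor did Prickle1 at 0.03. The ligands and co-receptors had a median change of -0.0294, and Wnt5a, Wnt11, Ptk7 and Ror2 lay between -0.15 and 0.19 with adjusted p of 0.16 or more. The atypical cadherins Fat4 and Dchs1, which bind each other across cell contacts, rose by 0.58 ± 0.10 (adjusted p 0.0036) and 0.40 ± 0.09 (adjusted p 0.012). Fat4 lay at 22.1, 21.1 and 14 TPM in wild type and at 30.4, 27.2 and 32.2 TPM in Lp/Lp, and wild type replicate 3 was the lowest library for both genes. The members called higher when Lp/Lp replicate 1 was left out were Celsr2, Celsr3, Fat4 and Dchs1, and 5 members rose when Lp/Lp replicate 3 or wild type replicate 3 was left out. The call of Cdc42 was lost without Lp/Lp replicate 1 or 3, or wild type replicate 1 or 3. Of 22 actomyosin and apical constriction genes, which shape the bending neural plate, Palld alone passed, an actin crosslinker at 0.33 ± 0.09 (adjusted p 0.027), and it lost its call without Lp/Lp replicate 2 or 3 or wild type replicate 2.

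Many genes of neurons and of their progenitors rose. Of 37 neuronal genes tested (of 42 listed) 20 rose, with a median change of 0.716, and of 18 neural progenitor genes 10 rose and Lin28a fell, with a median of 0.306. With Lp/Lp replicate 1 left out the counts were 15 with a median of 0.461 and 8 with a median of 0.269. Of 20 pan-neuronal genes 16 passed, with a median of 0.898, against 4 of 17 neuron subtype factors, with a median of 0.0382. The 3 Lp/Lp libraries differed among themselves. The median neuronal gene lay 1.16 above the wild-type mean in Lp/Lp replicate 1 and 0.384 and 0.46 above it in replicates 2 and 3, while wild-type libraries spanned -0.205 to 0.194. With both choices together, the 6 libraries fitted alone and replicate 1 left out, 8 neuronal genes passed. Against wild type 20 neuronal genes also rose in beta-catenin cKO and 3 fell (median 0.589). In Emg1 cKO 30 rose and 2 fell (median 0.92). Of the progenitor genes 5 rose in beta-catenin cKO (median 0.186) and 7 in Emg1 cKO (median 0.181), and 1 fell in each. Between mutants 2 progenitor genes were higher in Lp/Lp than in each knockout, with medians of 0.0461 and 0.00444. The rise of these lists was therefore not particular to Lp/Lp.

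Tubb3 (ENSMUSG00000062380), the neuronal beta-tubulin, lay at 117, 150 and 167 TPM in wild type and at 459, 235 and 236 TPM in Lp/Lp. All Lp/Lp libraries were higher and the change was 1.01 ± 0.21 with an adjusted p of 0.0073. Dcx (ENSMUSG00000031285), the doublecortin of migrating young neurons, lay at 8.84, 9.78 and 9.46 TPM in wild type and at 37.3, 20.2 and 20 TPM in Lp/Lp. It rose by 1.38 ± 0.20 with an adjusted p of 0.00087, and by 1.02 without replicate 1 (adjusted p 0.00028). Map2, a dendritic microtubule protein, rose by 0.95 ± 0.14 (adjusted p 0.00092). Lhx1, a LIM factor of spinal interneurons that also marks the nephric duct, went from 3.1, 4.59 and 4.21 TPM to 14.3, 8.74 and 11.2 TPM, a change of 1.43 ± 0.17 with an adjusted p of 0.00021. In the progenitor list Ncan, the chondroitin sulfate proteoglycan neurocan, showed the largest rise: 2.08, 2.71 and 2.23 TPM in wild type against 12.7, 6.66 and 6.38 TPM in Lp/Lp, or 1.79 ± 0.22 with an adjusted p of 0.00028. Fabp7, a lipid binding protein of radial glia, rose by 1.32 ± 0.18 (adjusted p 0.00068).

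Sox2 (ENSMUSG00000074637), a SoxB factor that keeps neural progenitors dividing, differed by like amounts in each library. It lay at 62.6, 61.6 and 60.9 TPM in wild type and at 88.1, 86.5 and 93.8 TPM in Lp/Lp, a change of 0.46 ± 0.08 with an adjusted p of 0.0037, and it was called in all 17 other settings. Its relatives Sox1 and Sox3 rose by 0.55 and 0.52 (adjusted p 0.023 and 0.033), and Pax6, a patterning factor of the same cells, rose by 0.41 ± 0.06 (adjusted p 0.0016). Leaving out Lp/Lp replicate 2 or wild type replicate 1 left 6 progenitor genes called, and the fall of Lin28a was not called without Lp/Lp replicate 1 or wild type replicate 1 or 2.

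Of 28 proneural and Notch genes 11 rose, with a median of 0.304, and 5 rose without Lp/Lp replicate 1, among them Notch1, Notch3, Jag1 and Ebf3. Leaving out a wild-type library or Lp/Lp replicate 3 left 6 or 7, and the fit of 6 libraries called 5. Against wild type 5 genes of the list also rose in beta-catenin cKO and 2 fell (median 0.109). In Emg1 cKO 12 rose and 1 fell (median 0.272). Between mutants 6 were higher in Lp/Lp than in beta-catenin cKO (median 0.104), and 1 was higher and 1 lower than in Emg1 cKO (median -0.00565). Notch1, a receptor that holds neighbouring cells as progenitors, lay at 30.6, 31.5 and 22.1 TPM in wild type and at 38.2, 40.4 and 45 TPM in Lp/Lp. The groups did not overlap and the change was 0.48 ± 0.12 with an adjusted p of 0.025. Neurog2, a proneural factor of the spinal cord, lay at 40, 42.7 and 37.8 TPM in wild type and 41.6, 42.5 and 45.6 TPM in Lp/Lp, a change of 0.03 (adjusted p 0.88). The Notch ligand Dll1 rose by 0.40 (adjusted p 0.027).

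**Figure D3:**
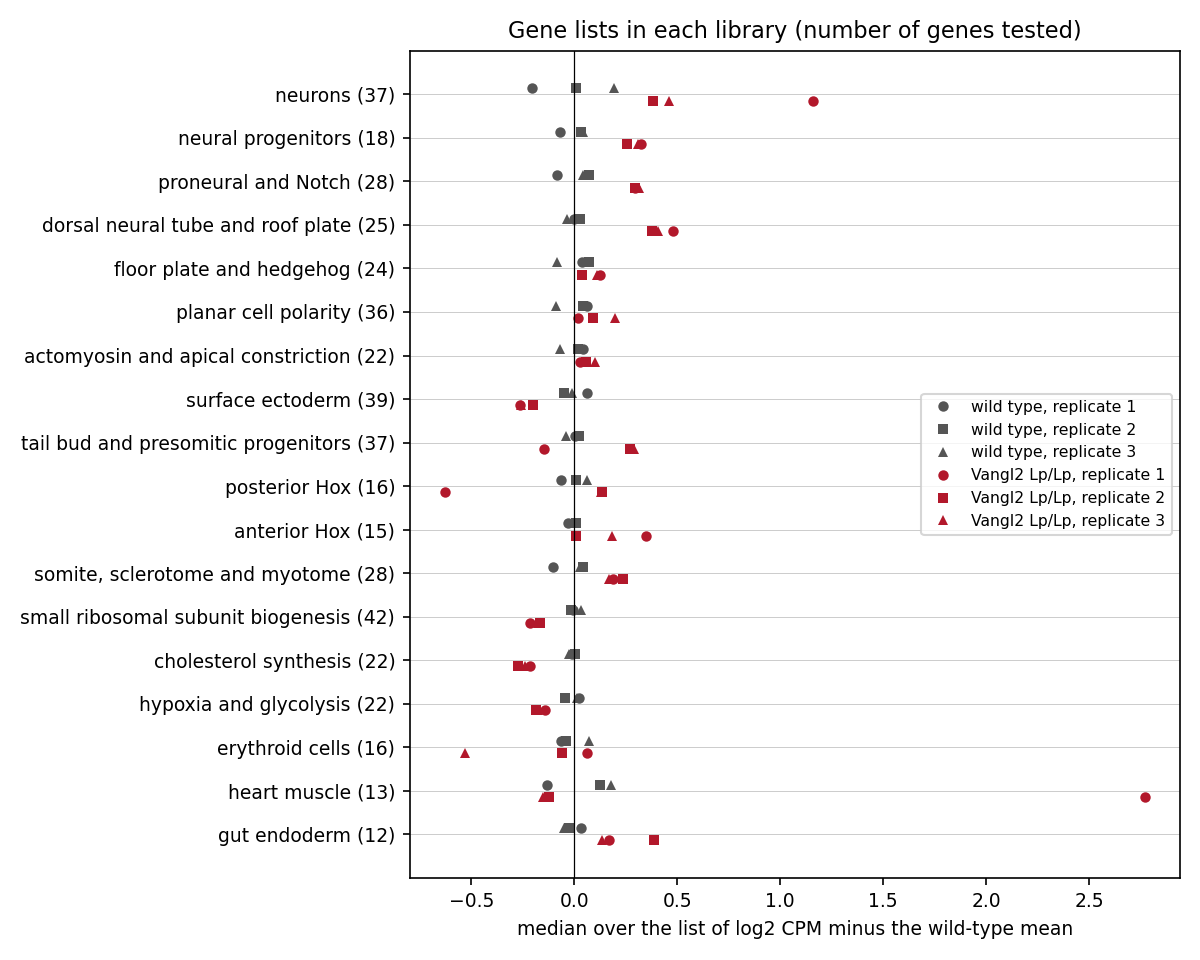
Median over each gene list of the log2 CPM (reads scaled to the library total) minus the wild-type mean, for the 3 wild-type libraries (grey) and the 3 Lp/Lp libraries (red), with the number of genes tested in brackets. Dorsal neural tube, progenitor, ribosome and cholesterol lists sit together in all 3 red points, while heart muscle at 2.77, neurons at 1.16 and posterior Hox at -0.628 set replicate 1 (circle) apart.

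The neural tube is patterned from the roof plate by BMP and WNT signals and from the floor plate by hedgehog. Of 25 genes of the dorsal neural tube and roof plate 11 rose and Msx1 and Msx2 fell, with a median change of 0.485. Of 24 floor plate and hedgehog genes 5 rose, with a median of 0.11. Without Lp/Lp replicate 1 the dorsal count was 7 higher with a median of 0.428 and the ventral count 4 higher with a median of 0.0611, and 3 ventral genes passed without Lp/Lp replicate 3 or without wild type replicate 3 (medians of 0.072 and 0.092). The difference between the lists was not tested. Olig3 (ENSMUSG00000045591), a factor of dorsal interneuron progenitors, lay at 28.6, 29.9 and 25.3 TPM in wild type and at 41.0, 43.2 and 39.5 TPM in Lp/Lp. All 3 Lp/Lp libraries were higher by similar amounts, and the change was 0.48 ± 0.11 (adjusted p 0.017), or 0.49 without replicate 1 (adjusted p 0.044). Zic1, a zinc finger factor of the dorsal tube and somites, rose by 0.61 ± 0.08 (adjusted p 0.00049), from 45.9, 47.4 and 41.2 TPM to 83.4, 70.0 and 63.4 TPM. Dbx2, of progenitors at the middle of the dorsoventral axis, rose from 1.24, 0.921 and 1.21 TPM to 2.30, 2.59 and 3.21 TPM, or by 1.18 ± 0.20 (adjusted p 0.0028).

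The roof plate genes Wnt1, Lmx1a and Msx3 changed by 0.21, 0.54 and 0.39 and did not pass (adjusted p 0.62, 0.065 and 0.07). Msx1 and Msx2, targets of BMP signals from the roof plate and of other tissues such as limb bud, fell by 0.32 and 0.51 on the log2 scale (adjusted p 0.045 and 0.032), and leaving out any single library of the 6 lost 1 or both of these calls. In the ventral list Shh, the hedgehog ligand of notochord and floor plate, lay at 25.6, 21.7 and 22.3 TPM in wild type and at 22.3, 23.5 and 26.6 TPM in Lp/Lp, and the groups overlapped. Foxa2, a floor plate factor, changed by 0.09 (adjusted p 0.73). Among the genes that rose were Boc, a hedgehog co-receptor also found in the dorsal tube, and the guidance cues Ntn1, Slit1 and Spon1. Boc lay at 41.4, 45.2 and 41.1 TPM in wild type and at 63.9, 54.9 and 62.8 TPM in Lp/Lp, a change of 0.43 ± 0.06 with an adjusted p of 0.00089. Ntn1, the netrin that draws commissural axons to the floor plate, rose by 0.44 (adjusted p 0.001). Olig2, of motor neuron progenitors, lay at 19.7, 18.8 and 17.1 TPM in wild type and at 8.03, 15.2 and 15.1 TPM in Lp/Lp (-0.61 ± 0.20, adjusted p 0.062).

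The somite beside the neural tube gives the sclerotome, which forms vertebrae, and the myotome, which forms muscle. Pax1 (ENSMUSG00000037034), a sclerotome factor, lay at 28.3, 23.4 and 25.1 TPM in wild type and at 36.9, 40.3 and 45.2 TPM in Lp/Lp. The groups did not overlap, and the rise of 0.59 ± 0.08 (adjusted p 0.00031) was called in all 17 other settings. Its partner Pax9 rose by 0.54 (adjusted p 0.001). Myog (ENSMUSG00000026459), the myogenic factor of differentiating muscle, lay at 36.1, 40.6 and 40.5 TPM in wild type and at 31.7, 30.9 and 30.9 TPM in Lp/Lp, a change of -0.41 ± 0.10 (adjusted p 0.022) that 11 of 17 other settings called. Myf6, another myogenic factor, changed by -0.98 (adjusted p 0.022). Acta1, the skeletal muscle actin, read 40.0, 16.5 and 17.7 TPM in Lp/Lp against 30.9, 34.5 and 34.1 TPM in wild type, so replicate 1 was the highest of all 6 libraries and the other 2 the lowest. Without that replicate, the one with heart muscle transcripts, Acta1 changed by -1.04 (adjusted p 0.00034) and Des, the muscle intermediate filament, by -0.45 (adjusted p 0.017). Over the whole list of 28 somite genes 4 rose and 3 fell, and 2 rose and 3 fell without replicate 1, and 2 rose without wild type replicate 1. The lower calls were lost when Lp/Lp replicate 2 or wild type replicate 2 was left out, and 1 stayed without Lp/Lp replicate 3. In the notochord list of 10 genes Sox9 and Col2a1, shared with cartilage and sclerotome, rose, and the keratins Krt8 and Krt18, shared with surface ectoderm, fell. Of these, Col2a1 was called without Lp/Lp replicate 1. A single rise was called without Lp/Lp replicate 2 or 3 or wild type replicate 2, and a single fall without wild type replicate 1.

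The tail bud supplies the cells of the growing caudal axis. Of 37 tail bud and presomitic genes Sox2 and Dll1 rose and Lin28a fell, with a median of 0.181 (0.111 without Lp/Lp replicate 3), and a single gene rose without Lp/Lp replicate 3 or any one wild-type library. Over all genes tested 9.2% were called, so this count does not set the list apart. The replicates divided: the median gene lay at -0.146 in Lp/Lp replicate 1 and at 0.271 and 0.291 in replicates 2 and 3. Fgf8 (ENSMUSG00000025219), the growth factor that holds tail bud cells undifferentiated, lay at 30.6, 30.7 and 25.3 TPM in wild type and at 27.3, 42.0 and 41.6 TPM in Lp/Lp. Its change was 0.28 (adjusted p 0.22) with all libraries and 0.46 (adjusted p 0.026) without replicate 1, when Wnt3a (0.85, adjusted p 0.035) and Sox2 also passed. T, the brachyury factor of nascent mesoderm and notochord, read 40.3, 60.0 and 63.4 TPM against 43.1, 46.7 and 37.4 TPM, and Msgn1, of presomitic mesoderm, 16.2, 29.9 and 39.3 TPM against 18.2, 21 and 17 TPM. Neither passed with or without replicate 1 (adjusted p of 0.06 or more). Of the 16 posterior Hox genes, which give caudal segments their identity, Hoxb13, Hoxb9 and Hoxc13 passed without replicate 1, at 0.85, 0.29 and 0.70, and had adjusted p of 0.092, 0.051 and 0.11 with it. Of 15 anterior Hox genes Hoxb3, Hoxb5 and Hoxc4 rose, and Hoxb3 alone passed without replicate 1, at 0.33 (adjusted p 0.015), while 1 passed without wild type replicate 2.

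Retinoic acid patterns the trunk against the tail bud, and BMP and WNT signals pattern both tube and mesoderm. Of 15 retinoic acid genes Cyp26b1 rose and Aldh1a2, Rarb and Crabp2 fell, with a median of 0.063 that ranged from 0.004 without Lp/Lp replicate 3 to 0.074 without Lp/Lp replicate 2. Aldh1a2, the enzyme that makes retinoic acid in somites, lay at 166, 142 and 134 TPM in wild type and at 115, 118 and 117 TPM in Lp/Lp. It fell by 0.41 ± 0.06 on the log2 scale (adjusted p 0.00098), as did its target and receptor Rarb, by 0.37 (adjusted p 0.0031). Cyp26b1, which breaks retinoic acid down, rose by 0.68 (adjusted p 0.002), from 17.1, 16 and 16.7 TPM to 25.1, 28.1 and 31.3 TPM. Crabp2, a retinoic acid binding protein, fell by 0.25 on the log2 scale (adjusted p 0.031) and was not called without replicate 1 (-0.28, adjusted p 0.059). Cyp26a1, the tail bud enzyme of breakdown, changed by 0.08 (adjusted p 0.78). Of 22 BMP genes Bmp4, a ligand, and Bambi, a decoy receptor, fell, by 0.38 (adjusted p 0.0073) and 0.41 (adjusted p 0.0028) on the log2 scale, with Msx1 and Msx2, while Bmp6 and Id4 rose. Without Lp/Lp replicate 1 Bmp4, Bambi and Id4 were called, and 2 genes were called lower without Lp/Lp replicate 3 or wild type replicate 2. Of 23 WNT/beta-catenin targets Lgr5 rose and Tnfrsf19 and Bambi fell. Bambi alone was called without Lp/Lp replicate 1, Lgr5 was not called without Lp/Lp replicate 2 or any one wild-type library, and 1 fall was called without wild type replicate 2. Axin2, the most general target, lay at 58.3, 59.4 and 46.3 TPM in wild type and at 57.0, 56.1 and 62.6 TPM in Lp/Lp (0.03, adjusted p 0.89).

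The surface ectoderm, the sheet that fuses over the closing tube, showed a median change of -0.221 over 39 tested genes of 42 listed. Trp63, Krt7, Krt8, Krt18 and Wnt6 fell and Wnt7b rose. Trp63 (ENSMUSG00000022510), the p53 relative that founds stratified epithelium, lay at 10.6, 9.49 and 7.72 TPM in wild type and at 6.64, 6.75 and 7.87 TPM in Lp/Lp. Here the groups overlapped, since the highest Lp/Lp library exceeded the lowest wild-type library. The change was -0.46 ± 0.11 (adjusted p 0.014). Wnt6 (ENSMUSG00000033227), a ligand of this sheet, lay at 30.2, 27.3 and 26.4 TPM in wild type and at 18.1, 22.7 and 19.8 TPM in Lp/Lp. The groups did not overlap, and the fall was by 0.54 ± 0.11 on the log2 scale (adjusted p 0.0057) and by 0.47 without replicate 1 (adjusted p 0.027). Krt7 fell by 0.59 (adjusted p 0.0038). Krt8, a simple epithelial keratin also of notochord and gut, read 76.4, 106 and 114 TPM against 165, 141 and 127 TPM, and was not called without replicate 1 (-0.47, adjusted p 0.084). Wnt7b went the other way, from 9.26, 9.25 and 9.39 TPM to 23.7, 17.5 and 18.6 TPM (1.02 ± 0.12, adjusted p 0.00012), and is also a gene of spinal cord. Tfap2c and Krt5, of early epidermis, changed by -0.14 (adjusted p 0.42) and 0.04 (adjusted p 0.90). The number of genes called lower moved with the settings: 2 without Lp/Lp replicate 1 or with limma on TPM, 9 with DESeq2 and 10 with voom or no filter.

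**Figure D4:**
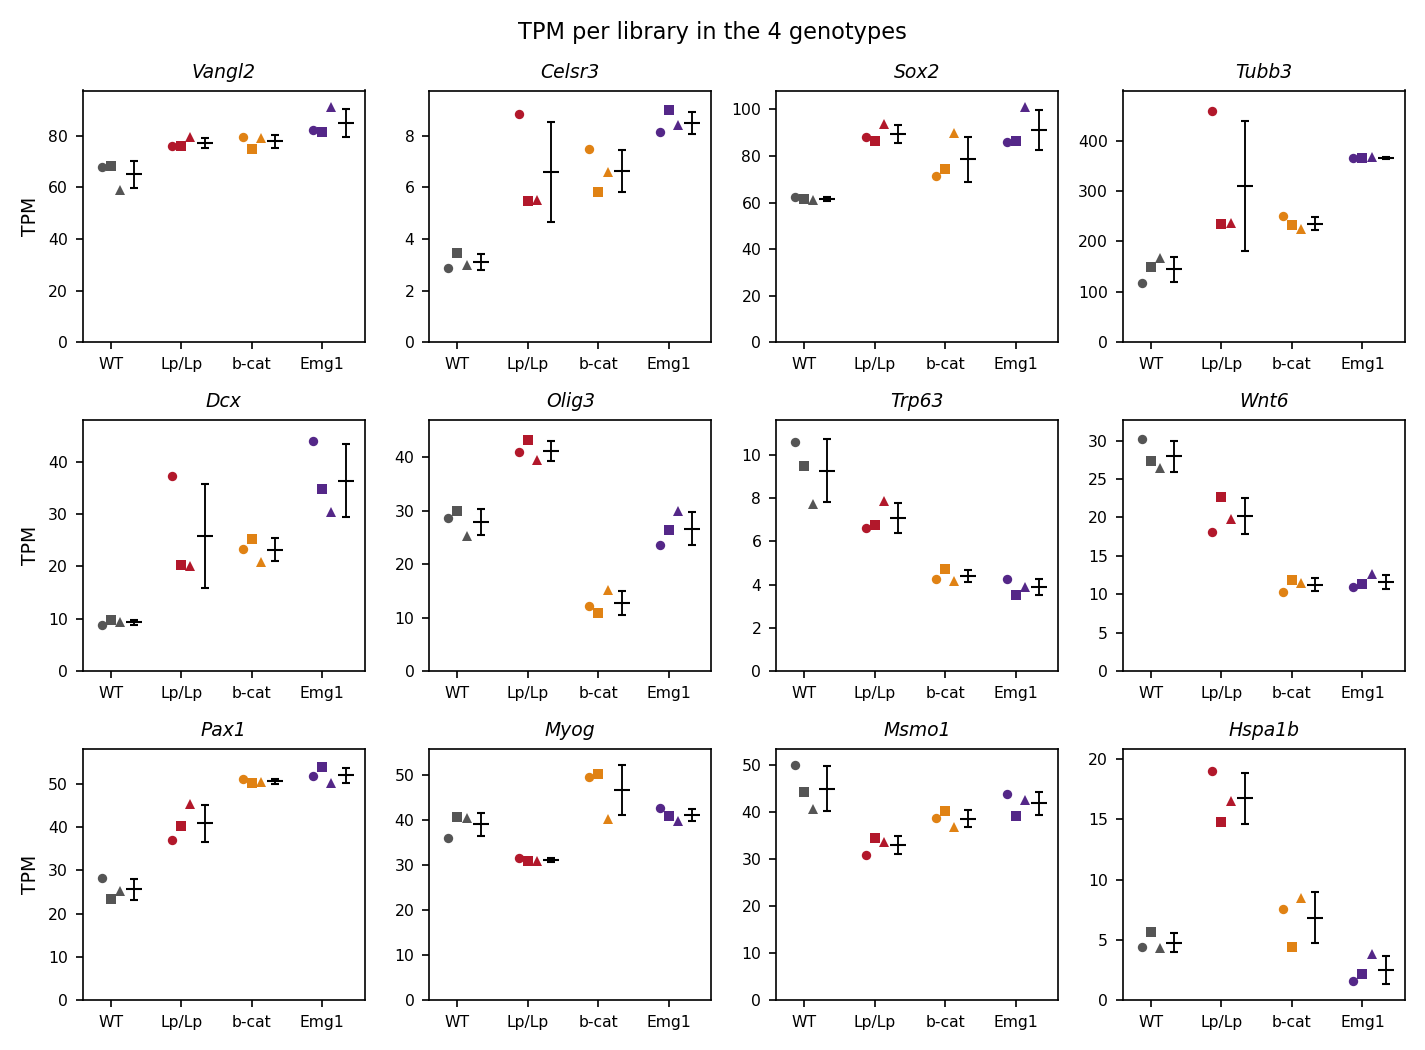
TPM of 12 genes in each library of wild type, Lp/Lp, beta-catenin cKO and Emg1 cKO, with 1 point per library and bars for mean ± SD (n = 3). Sox2, Olig3 and Pax1 show 3 Lp/Lp points together above wild type, Tubb3 and Dcx show replicate 1 the highest of the Lp/Lp points, and Msmo1 and Wnt6 lie under wild type.

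Cholesterol synthesis turns acetyl-CoA into the sterol that membranes need and that is joined to hedgehog ligands, and its enzymes are switched on together by SREBP2, helped in many promoters by the CCAAT-binding factor NF-Y. Of 22 enzymes 12 fell, with a median change of -0.233, and 9 fell without Lp/Lp replicate 1, with a median of -0.255. Against wild type 7 of these enzymes also fell in beta-catenin cKO and 1 rose (median -0.177). In Emg1 cKO 3 fell (median -0.0906). A fall in this list was therefore not particular to Lp/Lp. The 3 Lp/Lp libraries lay together, at -0.214, -0.271 and -0.237 from the wild-type mean. Promoters are shown for 3 of the enzymes, chosen after their values were seen: the one of smallest adjusted p, the pathway's entry enzyme, and Hsd17b7, which with Sc5d also differed from both other mutants. Each is the 250 bases before the RefSeq start site on GRCm38.p6 (mm10), printed 5′ to 3′ on the gene's strand, and capitals mark CCAAT on either strand (CCAAT or ATTGG) and TCACNCCAC, a form of the sterol response element.
Msmo1, chr8:64733579-64733828, minus strand: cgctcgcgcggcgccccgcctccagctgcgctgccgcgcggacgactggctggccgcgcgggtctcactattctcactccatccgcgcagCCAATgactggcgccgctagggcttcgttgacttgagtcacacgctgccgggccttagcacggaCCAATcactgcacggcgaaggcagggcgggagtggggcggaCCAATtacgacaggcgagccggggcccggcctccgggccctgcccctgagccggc
Hmgcs1, chr13:119690101-119690350, plus strand: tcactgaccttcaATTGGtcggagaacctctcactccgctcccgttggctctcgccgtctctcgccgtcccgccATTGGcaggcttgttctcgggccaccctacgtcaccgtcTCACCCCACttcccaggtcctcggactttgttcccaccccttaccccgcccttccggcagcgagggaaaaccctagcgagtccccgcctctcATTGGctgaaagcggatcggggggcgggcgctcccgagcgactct
Hsd17b7, chr1:169969206-169969455, minus strand: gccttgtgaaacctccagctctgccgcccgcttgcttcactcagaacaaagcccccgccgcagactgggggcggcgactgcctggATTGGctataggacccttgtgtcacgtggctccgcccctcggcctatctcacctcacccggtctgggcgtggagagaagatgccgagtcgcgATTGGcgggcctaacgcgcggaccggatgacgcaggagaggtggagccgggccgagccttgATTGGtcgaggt

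Each of these 3 windows holds CCAAT 3 times, while the windows of the other enzymes called lower hold it 1 or 2 times (Sc5d 1 time), and the Hmgcs1 window holds TCACCCCAC ending 128 bases before the start. Of the 22 enzymes 16 had a window, and CCAAT stood in all 16, against 40.9% of the tested genes with a window. It stood in 8 of 8 enzymes called lower and equally in 8 of 8 that were not called, so it did not separate the enzymes that fell from the others. TCACNCCAC, searched on both strands, was found in the window of Hmgcs1 alone among the 16, and in 1.23% of tested genes. In that window the motifs did not overlap. A match is only these letters in this window.

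Msmo1 (ENSMUSG00000031604), a sterol methyl oxidase, lay at 49.9, 44.2 and 40.5 TPM in wild type and at 30.8, 34.4 and 33.5 TPM in Lp/Lp. It fell by 0.52 ± 0.07 on the log2 scale (adjusted p 0.00029), and by 0.48 without replicate 1 (adjusted p 0.0017). Hmgcs1 (ENSMUSG00000093930), the synthase that feeds the pathway, fell by 0.27 (adjusted p 0.014), from 282, 255 and 231 TPM to 229, 217 and 226 TPM. Hsd17b7 (ENSMUSG00000026675), a sterol ketone reductase, lay at 29.5, 28.7 and 22.8 TPM in wild type and at 20.2, 18.5 and 17.2 TPM in Lp/Lp, a fall by 0.61 ± 0.09 on the log2 scale (adjusted p 0.00089). It lies 2.03 Mb from Vangl2. Others that fell were Idi1, Fdps, Fdft1, Sqle, Lss, Cyp51, Nsdhl and Sc5d, which act from isoprenoid building blocks to the last desaturation steps. The fall of Sc5d was slight (-0.17, adjusted p 0.045) and its groups overlapped. It was called in 4 of 17 other settings and not without replicate 1 (adjusted p 0.13). With limma on TPM 6 enzymes passed as lower, and 4 with the 6 libraries fitted alone and replicate 1 left out, while the median stayed between -0.255 and -0.149.

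Ribosome building and glycolysis supply growing tissue. Of 42 small ribosomal subunit biogenesis factors 16 fell, with a median of -0.171, and the Lp/Lp libraries lay at -0.214, -0.168 and -0.178. Leaving out Lp/Lp replicate 1 gave a median of -0.172 with 6 members called, Wdr75, Wdr43, Wdr36, Mphosph10, Npm1 and Bysl, and 4 passed with limma on TPM. Against wild type 26 of these factors also fell in beta-catenin cKO (median -0.209) and 35 in Emg1 cKO (median -0.259). Between mutants 0 members differed from beta-catenin cKO and 2 were higher in Lp/Lp than in Emg1 cKO. The fall of this list was therefore not particular to Lp/Lp. Npm1 (ENSMUSG00000057113), the nucleolar phosphoprotein, lay at 3000, 2870 and 2830 TPM in wild type and at 2110, 2440 and 2530 TPM in Lp/Lp, a change of -0.38 (adjusted p 0.0026). Of 22 hypoxia and glycolysis genes 8 fell and 2 rose, with a median of -0.145. Without replicate 1 Slc2a1, Eno1, Aldoa and Bnip3 were called lower, and 5 genes without Lp/Lp replicate 3. The rises, of Hk1 and Pfkp, were both lost without Lp/Lp replicate 1 or any one wild-type library, and 1 was lost without Lp/Lp replicate 3. Against wild type 8 genes of this list also fell in beta-catenin cKO (median -0.0594). In Emg1 cKO 11 fell and 2 rose (median -0.274). Between mutants 1 gene was higher in Lp/Lp than in beta-catenin cKO and 3 higher than in Emg1 cKO, with medians of -0.0434 and 0.161. Falls in this list were therefore not particular to Lp/Lp. Slc2a1 (ENSMUSG00000028645), a glucose transporter, lay at 302, 285 and 252 TPM in wild type and at 201, 213 and 237 TPM in Lp/Lp (-0.44, adjusted p 0.00063). Reads of Eno1 may be split with a near-identical copy. Of 29 cell cycle and replication genes Tyms, Ccne1 and Rrm2 fell, with a median of -0.112, and these calls were lost without Lp/Lp replicate 1 or 3 or wild type replicate 2 or 3. Over all genes tested 9.2% were called and 3.41% were called lower. Among genes over 100 TPM 220 of 1831 fell, with a median change of -0.096, and the part of level in this list was not tested. Against wild type 9 genes of the list fell in beta-catenin cKO and 14 in Emg1 cKO.

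Of 16 erythroid genes 3 fell, Hbb-bh1 and Alas2 among them, and Hbb-bt rose, and without Lp/Lp replicate 1 Rhag fell too, beside the low erythroid sum in Lp/Lp replicate 3. A single fall was called without Lp/Lp replicate 3 or wild type replicate 3, and the rise was lost without Lp/Lp replicate 1 or 2 or wild type replicate 1 or 2. The globin genes are near-identical copies whose reads the counting may split. In the nephric list of 16 genes Pax2, Pax8, Lhx1, Gfra1 and Sall1 rose, and the same 5 were called without Lp/Lp replicate 1, when Osr1 was called lower. The list's median was 0.0987 and turned to -0.0184 without that replicate, and it was 0.173 and 0.051 without wild type replicates 2 and 3. Pax2, a factor of nephric duct and of spinal interneurons, went from 4.69, 4.51 and 3.74 TPM to 6.85, 6.49 and 7.87 TPM (0.64 ± 0.12, adjusted p 0.0036). Of 20 endothelial genes Kdr, Emcn and Egfl7 fell, and none of these 3 kept its call without replicate 1 (Kdr then at -0.25, adjusted p 0.056). Of 20 neural crest genes 4 rose, Ngfr, Ednrb and Sox9 among them, and Ngfr and Ednrb were called without replicate 1. Of 25 p53 targets Plk3 rose and Fas, Plk2 and Rps27l fell, Fas alone was called without replicate 1, and Plk3 was not called without wild type replicate 1. Of 23 genes whose loss gives neural tube defects through other pathways Alx1, a homeobox gene of mesenchyme, fell by 0.55 ± 0.12 on the log2 scale (adjusted p 0.011).

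Some genes near or under the threshold in wild type were far higher in Lp/Lp. Rpgrip1, Ifi204, Erbb4 and Kirrel2 were tested only because all 3 Lp/Lp libraries exceeded 1 TPM, so they had to differ and their values are given as a description, with no test. Rpgrip1 (ENSMUSG00000057132, chromosome 14, 52110704 to 52163546), which encodes a protein of the photoreceptor connecting cilium, lay at 0.488, 0.339 and 0.299 TPM in wild type and at 20, 12.6 and 24.9 TPM in Lp/Lp. Ifi204 (ENSMUSG00000073489, chromosome 1, 173747293 to 173766943), an interferon-inducible gene, lay at 0, 0.246 and 0.0717 TPM in wild type and at 29.7, 43.5 and 46.3 TPM in Lp/Lp, from 14 and 4559 reads in all. It belongs to a cluster of near-identical copies, as does its neighbour Ifi207, so the split of reads between them is uncertain. Erbb4, a neuregulin receptor, read 0.111, 0.142 and 0.107 TPM in wild type and 2.29, 1.04 and 1.10 TPM in Lp/Lp. Kirrel2, an immunoglobulin family adhesion protein, read 0.298, 0.349 and 0.337 TPM and 5.43, 1.47 and 1.55 TPM, so its Lp/Lp level was highest in replicate 1. Ntrk2, which exceeded 1 TPM in all 6 libraries, is the receptor for brain-derived neurotrophic factor and rose from 2.40, 1.91 and 1.87 TPM to 6.36, 5.09 and 4.96 TPM (1.33 ± 0.12, adjusted p 3.4e-05).

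Among the genes lower in Lp/Lp, Ctse, the protease cathepsin E, lay at 4.26, 3.65 and 3.98 TPM in wild type and at 0, 0.0246 and 0.408 TPM in Lp/Lp, and it was tested only because the 3 wild-type libraries exceeded 1 TPM. Lyrm7, an assembly factor of respiratory complex III, went from 7.72, 6.05 and 7.21 TPM to 0.92, 1.73 and 1.42 TPM (-2.44 ± 0.22, adjusted p 3.4e-05). The groups of Lyrm7 did not overlap, while for Ctse the filter itself set the groups apart. Rps3a3, a ribosomal protein pseudogene, lay at 152, 610 and 575 TPM in wild type and at 11.4, 17.6 and 8.34 TPM in Lp/Lp, and Hbb-bh0, a beta-globin copy, at 98.5, 106 and 162 TPM and 4.52, 53.3 and 14.6 TPM. Both share sequence with highly expressed genes, so their counts are uncertain. Hspa1b and Hspa1a, stress-induced heat shock genes that are near-identical copies, rose together: Hspa1b from 4.37, 5.67 and 4.29 TPM to 19, 14.8 and 16.5 TPM (1.74 ± 0.26, adjusted p 0.001), and Hspa1a by 1.33 (adjusted p 0.0064).

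Genes close to Vangl2 travel with the Lp allele on the founder chromosome. Of 168 tested genes within 10 Mb of Vangl2 15 rose and 11 fell, or 15.5% called, against 11.9% on the rest of chromosome 1 and 9.0% on the other chromosomes. Without Lp/Lp replicate 1 the counts within 10 Mb were 10 and 7. These shares include genes that passed the TPM threshold through a single group and had to differ. In the window these were Ifi204, Ifi207, Cfap126, H3f3aos and Gm16701, all among those that rose, so the higher share in the window rests in part on the filter. Hsd17b7, Fmo1 and Tmco1 are also in this window. Tmco1, a calcium channel of the endoplasmic reticulum, lay at 45.6, 38.6 and 35.8 TPM in wild type and at 29.5, 29.6 and 31.0 TPM in Lp/Lp (-0.49 ± 0.06, adjusted p 0.00041). It also fell against wild type in beta-catenin cKO (-0.43, adjusted p 0.00058) and in Emg1 cKO (-0.42, adjusted p 0.00037). Ifi204 averaged 7.55 ± 7.5 TPM in beta-catenin cKO and 3.78 ± 3.5 TPM in Emg1 cKO (SD, n = 3). Hsd17b7 was called against wild type in neither (-0.20, adjusted p 0.14, and -0.11, adjusted p 0.40). Fmo1 was called lower in Emg1 cKO (-1.37, adjusted p 0.00052) and not in beta-catenin cKO (-0.11, adjusted p 0.77). Whether a linked strain difference has a part in the genes of this window was not tested, and for them it cannot be told apart from the Lp allele. For Tmco1 a difference between the wild-type pools and all mutant pools cannot be told apart from these either.

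The 2 conditional knockouts give a second reference in the same fit, and a direct contrast between mutants does not use the wild-type means. The wild-type libraries still entered the gene filter and the estimate of spread. A gene could pass the filter through the Lp/Lp libraries alone, as 166 did, but not through a knockout alone. The balance of higher and lower calls between mutants is therefore not free of the filter. These direct contrasts share the 3 Lp/Lp libraries with each other and with the contrast to wild type. In Lp/Lp 401 genes exceeded their level in beta-catenin cKO (2.4%) and 275 lay under it (1.64%), and against Emg1 cKO 286 were higher (1.71%) and 233 lower (1.39%). Several single libraries moved these counts: the 676 differences from beta-catenin cKO were 431 without Lp/Lp replicate 2, and 447, 401 and 365 when beta-catenin cKO replicate 1, 2 or 3 was left out. The 519 differences from Emg1 cKO were 217 and 313 without Lp/Lp replicates 2 and 3, and 284 and 185 without Emg1 cKO replicates 1 and 2. Over the same genes 15% were called between beta-catenin cKO and wild type and 22.7% between Emg1 cKO and wild type, beside 9.2% for Lp/Lp.

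Part of the surface ectoderm list was higher in Lp/Lp than in each knockout. Of 39 genes 13 were higher than in beta-catenin cKO, with a median difference of 0.156, and 13 higher than in Emg1 cKO, with a median of 0.355. Without Lp/Lp replicate 1 the counts were 12 and 12. Tfap2c, an AP-2 factor of early ectoderm, lay at 13.3, 13 and 13 TPM in wild type and at 11.1, 12.9 and 13.5 TPM in Lp/Lp, against means of 4.27 ± 0.36 TPM in beta-catenin cKO and 6.52 ± 0.37 TPM in Emg1 cKO (SD, n = 3). Lp/Lp exceeded them by 1.58 (adjusted p 2.2e-06) and 0.98 (adjusted p 0.00021). Wnt6, which fell against wild type, still exceeded both knockouts, by 0.87 (adjusted p 0.0004) and 0.84 (adjusted p 0.00077), as did Trp63, by 0.71 (adjusted p 0.0018) and 0.90 (adjusted p 0.00048). Grhl3 differed from Emg1 cKO by 1.04 (adjusted p 0.019) and from beta-catenin cKO by 0.48 (adjusted p 0.30).

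Of 25 dorsal neural tube genes 15 were higher in Lp/Lp than in beta-catenin cKO, with a median of 0.634, and 12 were higher without Lp/Lp replicate 1, while 4 were higher than in Emg1 cKO with or without that replicate. Olig3 averaged 12.7 TPM in beta-catenin cKO and 26.7 TPM in Emg1 cKO, and Lp/Lp exceeded them by 1.72 (adjusted p 2.2e-06) and 0.67 (adjusted p 0.0058). Of the roof plate genes, Wnt1 and Lmx1a exceeded beta-catenin cKO by 1.20 (adjusted p 0.013) and 0.75 (adjusted p 0.025). In the tail bud list 9 of 37 genes were higher than in beta-catenin cKO and 8 higher than in Emg1 cKO, and 15 and 15 without Lp/Lp replicate 1. Fgf8 averaged 14.3 TPM and 19.3 TPM in the knockouts, and Lp/Lp exceeded them by 1.39 (adjusted p 7.8e-05) and 0.97 (adjusted p 0.002). Of the WNT/beta-catenin targets 8 of 23 were higher than in beta-catenin cKO, among them Axin2 by 0.44 (adjusted p 0.0095), and 3 higher than in Emg1 cKO. The latter count was 8 without Lp/Lp replicate 1.

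**Figure D5:**
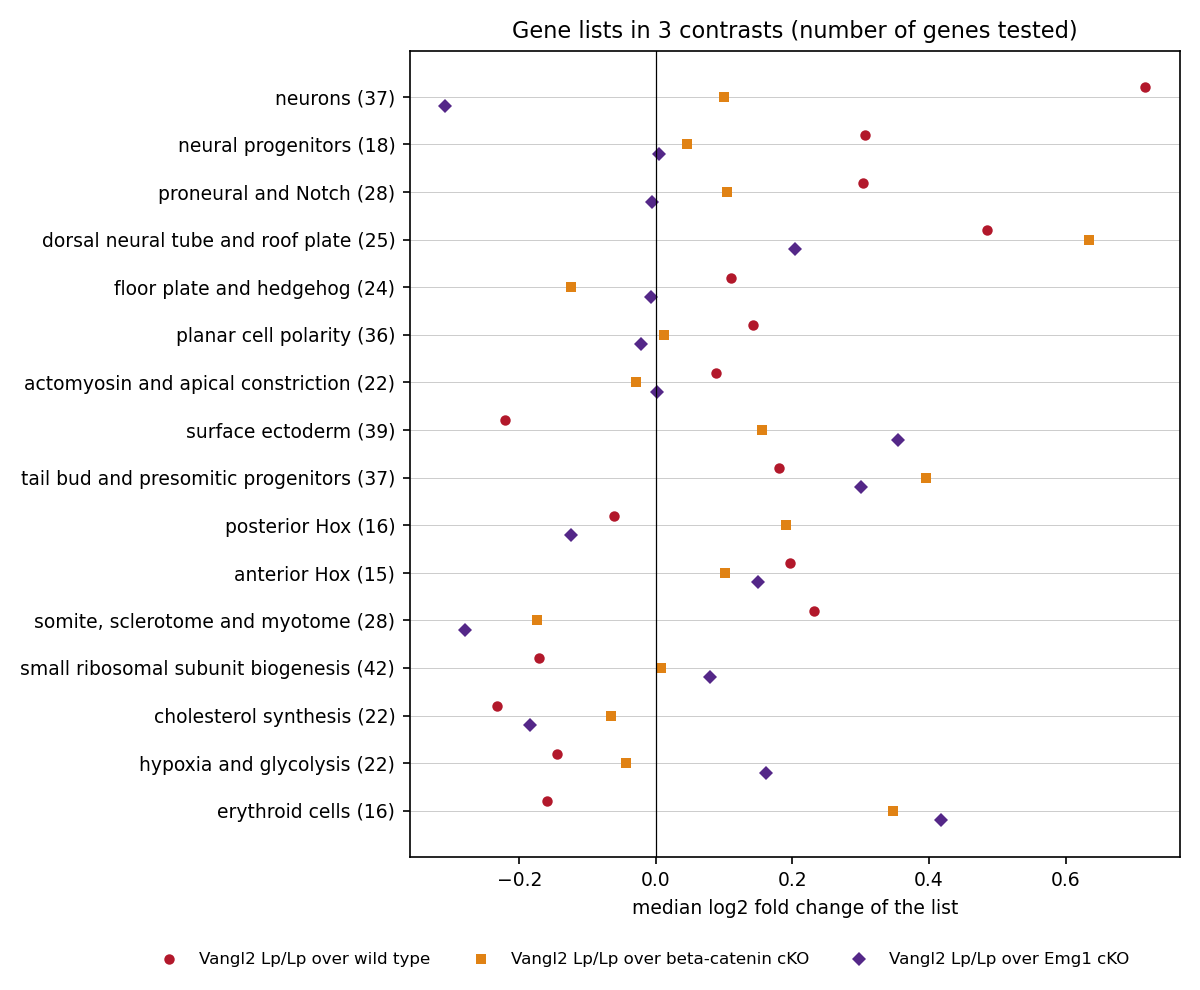
Median log2 fold change of each gene list for Lp/Lp over wild type (circles), over beta-catenin cKO (squares) and over Emg1 cKO (diamonds), which share the 3 Lp/Lp libraries; numbers of genes tested are in brackets. Surface ectoderm is at -0.221 against wild type and at 0.156 and 0.355 against the knockouts, and neurons are at 0.716 against wild type and -0.309 against Emg1 cKO.

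Of 37 neuronal genes 5 were higher than in beta-catenin cKO and 3 lower, and 1 was higher and 4 lower than in Emg1 cKO, with medians of 0.0991 and -0.309. Here Lp/Lp replicate 1 decided the count. Without it 19 neuronal genes were lower than in Emg1 cKO, with a median of -0.542, and the median against beta-catenin cKO was -0.189. Isl1, a factor of motor and dorsal root neurons, was 0.48 lower than in Emg1 cKO on the log2 scale (-0.48, adjusted p 0.00077) and Nefm, a neurofilament, changed by -0.54 (adjusted p 0.26). In the somite list Pax1 was lower than in both knockouts (-0.28, adjusted p 0.043, and -0.31, adjusted p 0.033), although it exceeded wild type. Myog was lower than in beta-catenin cKO (-0.56, adjusted p 0.0055). Aldh1a2 averaged 188 and 150 TPM in the knockouts and was lower in Lp/Lp than in both (-0.66, adjusted p 2.1e-05, and -0.33, adjusted p 0.0081).

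Of the cholesterol enzymes Sc5d and Hsd17b7 were lower than in beta-catenin cKO, and Hsd17b7, Sc5d, Msmo1 and Hmgcs1 lower than in Emg1 cKO. The other enzymes of the 22 tested were not called, and the medians of the list were -0.0658 and -0.185. Hsd17b7 differed by -0.41 (adjusted p 0.017) and -0.50 (adjusted p 0.0069). Rpgrip1, which passed the TPM threshold through the Lp/Lp libraries alone, averaged 0.427 ± 0.046 TPM in beta-catenin cKO and 0.376 ± 0.08 TPM in Emg1 cKO (SD, n = 3), beside 12.6 to 24.9 TPM in Lp/Lp. Ntrk2 exceeded them by 0.78 (adjusted p 0.0018) and 0.83 (adjusted p 0.0019), and Hspa1b by 1.32 (adjusted p 0.0076) and 2.78 (adjusted p 6.2e-05). Some other genes far from wild type were not called between mutants. The zinc finger genes Zfp966 to Zfp969, a cluster of near-identical copies on chromosome 2, also passed that threshold through the Lp/Lp libraries alone and had to differ from wild type. Zfp968 lay at 0.327, 0.183 and 0.184 TPM in wild type and at 2.81, 2.64 and 2.55 TPM in Lp/Lp. Zfp968 averaged 2.62 TPM in beta-catenin cKO and 2.84 TPM in Emg1 cKO, and the adjusted p of Lp/Lp against them were 0.96 and 0.94. Acsl6, an acyl-CoA synthetase, rose by 1.67 ± 0.13 (adjusted p 8.7e-06) and averaged 3.79 and 4.46 TPM in the knockouts, beside 4.13, 3.32 and 3.97 TPM in Lp/Lp. For Acsl6 the mutant means lay together above the wild-type values of 0.98, 1.24 and 1.15 TPM, and a difference between the wild-type pools and all mutant pools cannot be told apart from an effect that the mutants share.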

How the data were processed

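Per the labels, total RNA of pooled embryos was extracted with a miRNeasy kit and sequenced from a TruSeq Stranded mRNA library. Trimmomatic 0.39, STAR 2.7.10b and mm10 are named in the submitters' processing notes. How reads were counted, with which strand setting and annotation, is not given in the sources used here, so reads of overlapping or antisense genes may not be separable. The deposited table holds 2 values per library: the log2 of TPM as computed by the authors, with values of 1 TPM or less set to 0, and the authors' expected count of reads per gene, not normalised. Counts over TPM followed 1 factor per gene and library to within 1.2e-06 (log2), and levels under 1 TPM were recovered from the counts. Each of the 24 value columns was matched to its library.

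Counts were rounded and tested in R 4.3.3 with edgeR 4.0.16 (TMM scaling, 12 libraries with a mean per genotype, quasi-likelihood F test, two-sided, with a common dispersion of 0.00912). The p-values were adjusted by Benjamini-Hochberg over 16727 genes and called under 0.05. Adjusted p are edgeR's where no tool is named. The SE is the size of the log2 fold change over the root of F. Values in TPM are levels, and log2 values are differences. At an unadjusted p under 0.05, 4254 genes (25.4%) passed. In simulated data for the comparison of Lp/Lp with wild type over 16727 genes, 73 of 100 genes changed 1.5-fold and 95 of 100 changed 2-fold were recovered, with 7 false calls. The changed genes were drawn from those with more reads. All simulated libraries otherwise shared the same expected profile, with none set apart as Lp/Lp replicate 1 was. The median called change of 0.443 (log2) is also smaller than 1.5-fold. These figures therefore do not carry over to the calls in the real data.

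Groups and replicate numbers came from the sample titles. Replicate numbers did not pair libraries: deviations of same-numbered libraries correlated at -0.12 to 0.1 over 18 pairs. The genes compared and the gene lists were chosen with earlier results of these data known. Named genes were Vangl2, Ctnnb1, Emg1 and Grhl3, the 12 largest changes and 8 smallest adjusted p per direction among genes called with and without Lp/Lp replicate 1 whose groups did not overlap, up to 3 called members per list, the 6 largest changes lost without that replicate, up to 4 called genes near Vangl2 and 4 per direction between mutants. Gene model symbols were left out, and a few called genes are not reported here. Other genes named were chosen after their values were seen. Promoters are RefSeq's, on GRCm38.p6, matched by symbol. Alternatives were DESeq2 1.42.0, limma 3.58.1 on log2(TPM + 1) and log2(TPM + 0.1), voom with library weights, other scalings and filters, the 6 libraries alone, a replicate block and each library left out. Figures used matplotlib 3.10.9, and tables numpy 2.4.6 and pandas 2.3.3, under Python 3.11.15.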

Additional observations from a re-analysis of the deposited data

How the results depend on the processing

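Of the 127 named genes 123 were called, and 62 of them were called in every other setting in which they were tested. These were up to 17 settings (the stricter filter left out genes of low level) and 1 chosen after seeing the data, the 6 libraries fitted alone without Lp/Lp replicate 1. Most were named because they were called, many of them also without Lp/Lp replicate 1, and some had to differ through the filter. The share called again was therefore set in part by that choice and does not stand for all called genes. Of 2185 values for the called genes 1869 kept their direction and call and 312 lost only the call. The other 4 were of Myh7 and Myh6, which turned to -0.01 and -0.53 without Lp/Lp replicate 1 (ranges of -0.01 to 4.51 and -0.53 to 5.56 with a library left out) and to -0.0 and -0.53 in that added setting. The 968 higher genes became 1482 with no filter on low values and 504 with only the 2 groups fitted, ranged from 501 to 885 with a library left out, and were 266 in that added setting. The 571 lower genes became 887 with no filter, 184 and 186 with limma on log2(TPM + 1) and log2(TPM + 0.1), 233 with 2 groups and 82 in that added setting, and ranged from 211 to 608 with a library left out. The 676 differences from beta-catenin cKO became 1193 with no filter and 1178 with voom weights (365 to 563 with a library left out). The 519 from Emg1 cKO became 927 with DESeq2, 1063 with no filter, 329 with limma on log2(TPM + 0.1), 1548 with voom weights and 294 with 2 groups (185 to 651 with a library left out). The causes were not tested, except that fewer libraries or genes entered some fits. With the replicate block, although the numbers did not pair libraries, 872 genes were higher and 449 lower, and 626 and 469 differed from beta-catenin cKO and Emg1 cKO. The libraries held 32863562 to 46464596 reads, and genes near 1 TPM rest on the fewest of them.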
